A study of Mus musculus with 8 samples.

Results

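The genes described here are 10 members of the circadian clock and of its immediate outputs: Arntl (also called Bmal1), Npas2, Per1, Per2, Per3, Dbp, Nr1d1, Nr1d2, Ciart and Usp2, of 26866 genes on the array. Every probe whose symbol was a member was taken from the deposited table, which gave 22 probes, 17 of them bright enough to test. The members were chosen on their values in these same arrays, so their levels are given as a description and without a test. RNA came from whole liver of female NFS/sld mice, the strain used in all samples. In the Tx group, 4 arrays, the thymus had been removed on day 3 after birth and the liver was taken 8 weeks after the operation, which serves as a mouse model for Sjögren's syndrome (the primary form), in which autoimmunity damages salivary and tear glands. In the nonTx group, 4 arrays, the mice kept their thymus, and the labels used here give neither a sham operation nor an age for them. The replicates are given as independent, but whether each array held its own animal is not said, and p-values therefore cover only the variation among the arrays at hand. The hour at which livers were taken is not given in the labels used here.

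The circadian clock is a feedback loop that most cells run with a period of about a day. ARNTL pairs with CLOCK or NPAS2 and switches on genes that carry E-boxes in their promoters, among them the Per and Cry genes, whose proteins then shut the pair off, and the Nr1d genes, whose proteins repress Arntl through ROR elements. In mouse liver, Arntl and Npas2 are known to peak around dawn, Nr1d1, Nr1d2 and Dbp during the day, and the Per genes towards evening, so that Arntl and Npas2 run in roughly opposite phase to the other members. DBP and its relatives TEF and HLF bind D-boxes, where NFIL3 competes with them, and pass the rhythm on to metabolic genes.

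The promoters of the members that held a clock motif are shown because these letters are how the loop is read. RefSeq promoters of build GRCm38.p6 were matched by symbol for 9 of the 10 members, in 11 windows, and the 250 bases before each start were searched on both strands. The motifs were the E-box CACGTG, the variant CACGTT, the D-box TTATGNAA and the ROR elements TAGGTCA and TGGGTCA. They stood in 6.02%, 3.85%, 3.07%, 2.23% and 3.24% of all 32851 windows of that length. Of the 11 member windows, 4 held any of these motifs, from 4 of the 9 members, and 0 held a ROR element. The share of all windows with any of these motifs is not given, so the 4 of 11 is not read as many or few. The windows of Arntl, Npas2, Dbp, Nr1d2 and Usp2 held none and are not shown. The CACGTG letters read the same on both strands, and no motifs overlapped in the windows shown. Capitals mark the motif, and each sequence runs from 5′ to 3′ towards the start of the gene:
Ciart chr3:95882229-95882478 (- strand): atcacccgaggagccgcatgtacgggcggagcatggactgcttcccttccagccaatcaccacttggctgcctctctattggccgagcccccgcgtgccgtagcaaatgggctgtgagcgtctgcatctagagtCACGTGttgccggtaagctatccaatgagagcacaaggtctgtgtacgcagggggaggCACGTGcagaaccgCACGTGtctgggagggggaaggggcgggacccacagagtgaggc
Per1 chr11:69098699-69098948 (+ strand): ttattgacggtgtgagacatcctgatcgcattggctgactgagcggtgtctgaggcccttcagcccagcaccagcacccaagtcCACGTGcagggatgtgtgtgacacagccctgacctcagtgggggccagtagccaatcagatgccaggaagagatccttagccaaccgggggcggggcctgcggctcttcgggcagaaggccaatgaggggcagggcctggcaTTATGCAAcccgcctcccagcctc
Per3 chr4:151044666-151044915 (- strand): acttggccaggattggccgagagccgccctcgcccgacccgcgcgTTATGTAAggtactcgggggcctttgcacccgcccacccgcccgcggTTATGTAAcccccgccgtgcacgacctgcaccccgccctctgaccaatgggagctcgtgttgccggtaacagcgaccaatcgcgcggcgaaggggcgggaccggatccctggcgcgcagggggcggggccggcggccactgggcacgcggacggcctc
Nr1d1 chr11:98775378-98775627 (- strand): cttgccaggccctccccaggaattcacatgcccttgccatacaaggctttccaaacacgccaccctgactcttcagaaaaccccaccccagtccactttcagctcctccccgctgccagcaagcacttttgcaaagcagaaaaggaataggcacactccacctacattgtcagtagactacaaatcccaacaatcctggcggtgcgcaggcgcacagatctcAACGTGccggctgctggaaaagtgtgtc
Ciart, which encodes a repressor of the ARNTL and CLOCK pair, held 3 E-boxes, the nearest of them starting 44 bases before the start. Per1 held 1 E-box and, 24 bases before the start, 1 D-box; another Per1 start had none of these letters. Per3 held 2 D-boxes with the same letters, and Nr1d1 held 1 CACGTT on the opposite strand, which reads AACGTG in the window. A match describes the letters in this window and does not show that a factor binds there.

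The signal of each array was used as the intensity of a probe on a linear scale, and levels were compared after log2 transformation and subtraction of the 75th percentile of each array, as the scaled log2 level. The 75th percentile was 273.6 to 301.8 in nonTx and 224.8 to 330.0 in Tx, and 51.1% to 57.1% of probes were well above background. All 8 arrays shared 1 slide and 1 scan, but nonTx arrays lay in row 1 of the slide and Tx arrays in row 2, so slide row and group cannot be told apart. Across the genome, limma called 0 of 30955 probes between Tx and nonTx at an adjusted p under 0.05 (4085 had an unadjusted p under 0.05). Of 10 listed hepatocyte markers, 9 were on the array, and these were well above background on all 8 arrays. One array stood apart, Tx replicate 4, where the salivary protein gene Bpifa2, chosen after its values were seen, had an intensity of 79616 against 3.01 to 163.5 on the other 7. Another, Tx replicate 1, stood apart in the members themselves, and results that rest on it are given with and without it.

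Arntl, the activator of the loop and the only dawn member that could be measured, was low on 1 Tx array. Its intensity was 597, 761, 473 and 465 on nonTx replicates 1 to 4, and 106.7, 414, 459.6 and 375 on Tx replicates 1 to 4. Tx replicate 1 was by far the lowest, and the other 3 Tx arrays lay among the nonTx arrays once scaled. The scaled log2 level there was -1.63, or 5.47-fold below the mean of the other 3 Tx arrays, the 12th lowest such gap of 16495 tested genes. The log2 difference, Tx minus nonTx, was -0.77 ± 0.50 (SE, n = 4 per group), and -0.16 without Tx replicate 1. Of 3 other Arntl probes, 2 could be tested and followed the brightest with r of 0.98 and 0.98 over the arrays. Npas2, which can stand in for CLOCK as the partner of ARNTL, had 1 probe, which was at background on all 8 arrays, and no difference is given for it.

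The Per genes, which encode the repressors of the loop, were highest on the same Tx array where Arntl was lowest. Per1 had intensities of 339.7, 1313, 2849 and 3167 on nonTx replicates 1 to 4. On Tx replicates 1 to 4 its intensities were 7599, 2075, 835 and 618. Per1 thus differed 20.5-fold after scaling between its highest array, Tx replicate 1, and its lowest, nonTx replicate 1, and the groups overlapped. Its spread within groups, a log2 SD of 1.46, ranked 22 among 16495 genes, whose median SD was 0.19. The log2 difference between groups was 0.41 ± 0.80, and it turned to -0.19 without Tx replicate 1.

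Per2 read 423, 593, 912 and 750.1 on the nonTx arrays and 1929, 588, 456 and 419.7 on the Tx arrays. Tx replicate 1 was again highest and nonTx replicate 1 lowest after scaling. Its log2 difference was 0.24 ± 0.36, and -0.13 without Tx replicate 1. Another Per2 probe, dim and well above background on 6 arrays, did not follow the brightest one (r = -0.05), so the Per2 pattern rests on 1 probe. Per3 read 249, 199.4, 257 and 268 on the nonTx arrays and 525, 289, 149 and 209.8 on the Tx arrays. By its brightest probe it varied 2.46-fold from lowest to highest after scaling, with a log2 difference of 0.28 ± 0.24, and of 0.06 without Tx replicate 1. The probes differed in size: another Per3 probe, also well above background on all 8 arrays (r = 0.87 with the brightest), stood 2.01 log2 units above the other Tx arrays on Tx replicate 1, against 0.84 for the brightest.

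**Figure D1:**
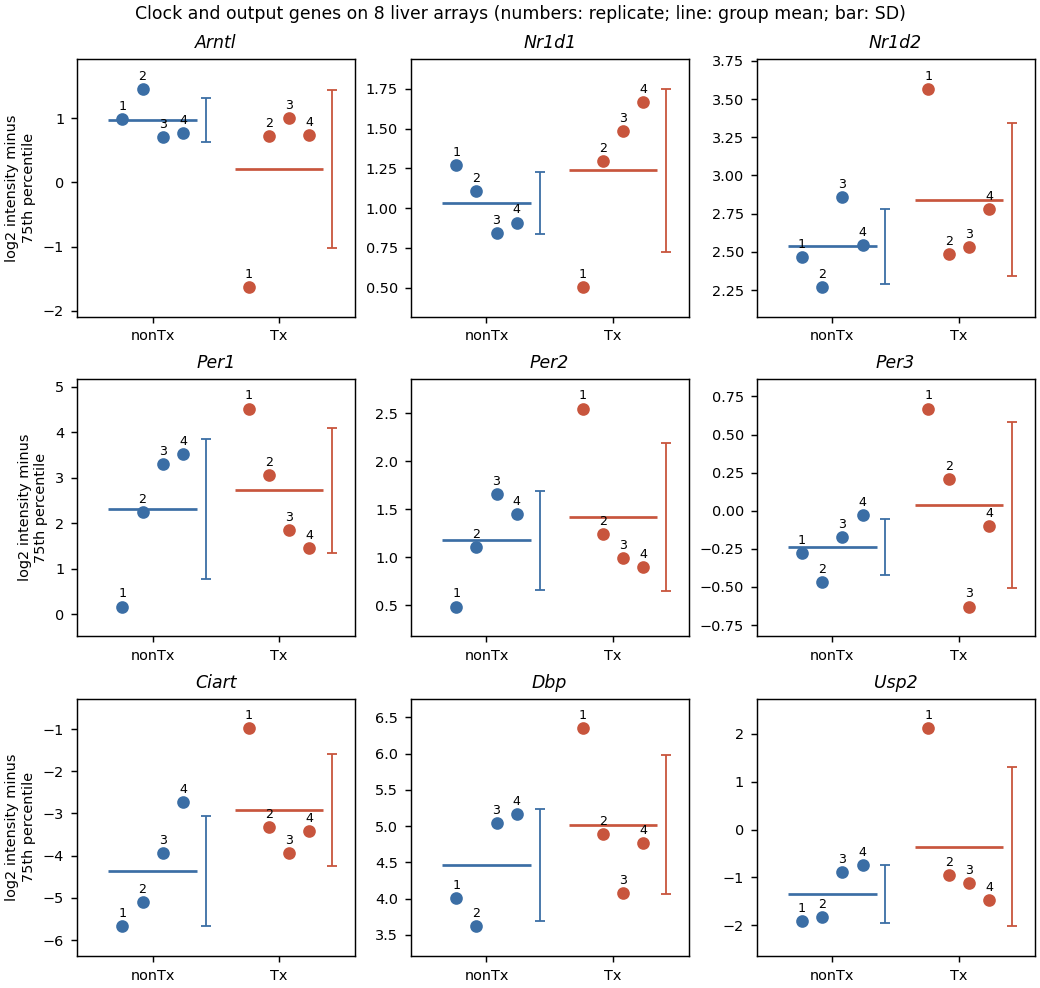
Scaled log2 level (log2 of the intensity less the 75th percentile of that array) of the 9 measured members on each of 8 arrays, with the replicate number beside each point, the group mean as a line and the SD as a bar (n = 4 per group). Tx replicate 1 is the highest of the 8 arrays in 7 panels and the lowest in the panels of Arntl and Nr1d1; each panel has its own axis.

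The nuclear receptors Nr1d1 and Nr1d2 (REV-ERB alpha and beta), which repress Arntl, went separate ways. Nr1d2 read 1665, 1333, 2097 and 1600.0 on the nonTx arrays and 3911, 1401, 1328 and 1544 on the Tx arrays. Tx replicate 1 was highest, and the other 3 Tx arrays lay within the nonTx range after scaling. Its log2 difference of 0.31 ± 0.23 fell to 0.06 without Tx replicate 1, and its 2 further probes followed it with r of 0.98 and 0.98. Nr1d1 read 728, 593, 518 and 514 on the nonTx arrays and 468, 612, 643 and 715 on the Tx arrays. After scaling it was lowest on Tx replicate 1, at 0.50, and highest on Tx replicates 4, 3 and 2, at 1.67, 1.48 and 1.29 against 0.84 to 1.27 in nonTx. Nr1d1 was thus the one day or evening member that did not peak on Tx replicate 1, and its log2 difference of 0.21 ± 0.22 was larger without that array, at 0.45. It has 1 probe on the array.

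The output genes Usp2 and Dbp were also highest on Tx replicate 1. Usp2, a deubiquitinating enzyme gene under clock control, read 79.7, 77.5, 155 and 163 on the nonTx arrays and 1435, 129.6, 106 and 80.6 on the Tx arrays. Tx replicate 1 was 9.87-fold above the mean of the other 3 Tx arrays after scaling, the gap with rank 2 of 16495 genes. The log2 difference of 0.99 ± 0.69 came to 0.17 without it. Dbp, the D-box activator, read 4853, 3389, 9565 and 9868 on the nonTx arrays and 26921, 7437, 3873 and 6093 on the Tx arrays. It was 3.42-fold above the other Tx arrays on Tx replicate 1, and nonTx replicates 3 and 4 exceeded nonTx replicates 1 and 2. Its log2 difference was 0.56 ± 0.48, and 0.12 without Tx replicate 1.

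Ciart was near the floor of the assay in part of the samples, and it passed the brightness filter through the Tx group only. It read 5.93, 8.07, 18.9 and 41.0 on the nonTx arrays, the first pair not well above background, and 167, 24.97, 14.95 and 21.0 on the Tx arrays, all well above it. Tx replicate 1 was highest by 5.97-fold over the other Tx arrays, a gap with rank 7. The log2 difference was 1.44 ± 0.74, and 0.80 without Tx replicate 1; with 2 nonTx arrays not above background, its size is uncertain. Another Ciart probe was well above background on 1 array.

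Set between the groups, the members gave no call. Limma called 0 of the 9 tested members, and 0% of all 30955 probes, at an adjusted p under 0.05; nothing is read from this, since the members were chosen on these values. The groups overlapped in all 9 members. Among all tested genes 8.06% did not overlap, a share so small that 9 members show no contrast with it. All 8 day and evening members had a higher mean in Tx; the median of their log2 differences was 0.36, beside 0.03 over all 16495 tested genes, of which 56.3% were higher. Without Tx replicate 1, 6 of the 8 were higher and the median was 0.09, so the size of the shift rested on that array. These counts and medians include Ciart, which passed the brightness filter only through the Tx group, where it was higher. When probes had to be well above background on all 8 arrays, Ciart dropped out and the median with Tx replicate 1 was 0.31.

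**Figure D2:**
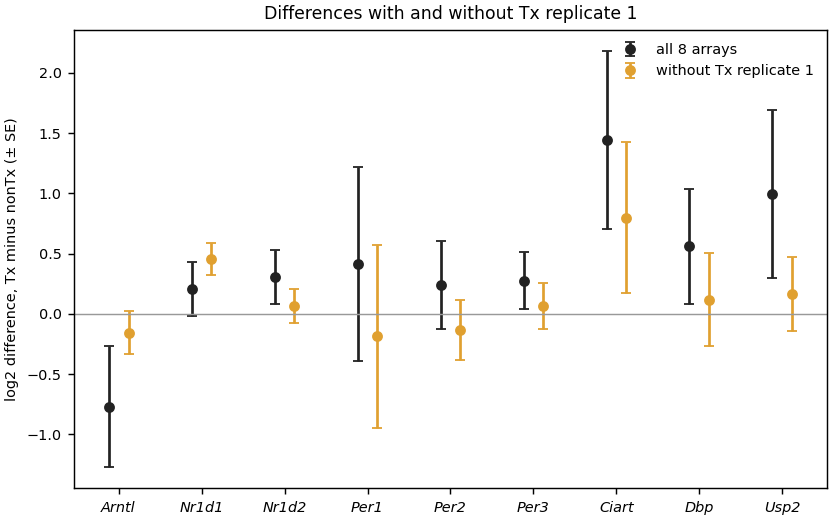
Log2 difference, Tx minus nonTx, with its SE for the 9 measured members, over all 8 arrays (black) and without Tx replicate 1 (orange). Per1 and Per2 change sign without that array (-0.19 and -0.13), and Nr1d1 is the member whose difference is larger without it (0.45).

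Arntl and the mean of the day and evening members tended to run in opposite directions over the arrays. For each array the mean deviation of the 8 day and evening members from their means over all arrays was taken, on the log2 scale. It was -0.91, -0.60, 0.11 and 0.29 on nonTx replicates 1 to 4 and 1.44, 0.14, -0.32 and -0.15 on Tx replicates 1 to 4. The deviation of Arntl on the same arrays was 0.39, 0.87, 0.12 and 0.17 in nonTx and -2.22, 0.13, 0.40 and 0.14 in Tx. NonTx replicates 1 and 2 thus combined high Arntl with low day and evening genes, and Tx replicate 1 the reverse. On nonTx replicates 1 and 2 the mean includes Ciart intensities of 5.93 and 8.07, which were not well above background. The day and evening genes of the other 5 arrays lay between them. On nonTx replicates 3 and 4 and Tx replicate 2, both deviations were positive. As a description over 8 arrays, Pearson's r was -0.90 and Spearman's rho -0.76, with r = -0.88 after the group means were subtracted. Without Tx replicate 1 and nonTx replicate 2, the arrays farthest from the median of Arntl, r was -0.81 (6 arrays), and without Tx replicate 1 alone -0.69. The points share the scaling of each array.

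**Figure D3:**
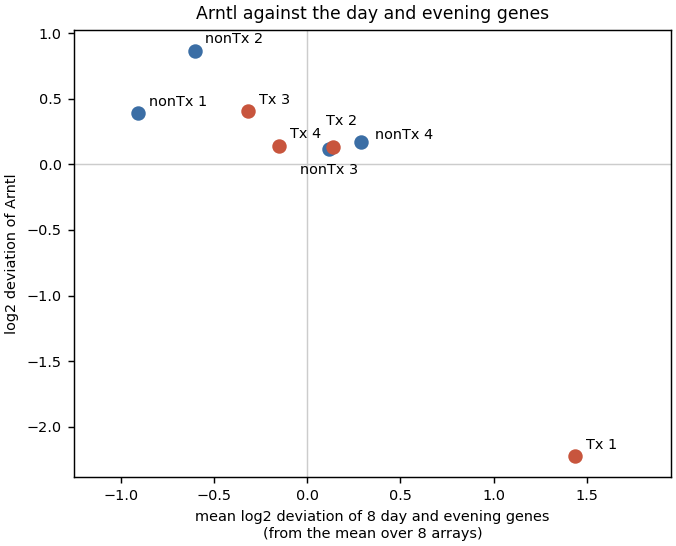
Log2 deviation of Arntl from its mean over 8 arrays against the mean log2 deviation of the 8 day and evening members, 1 point per array (blue nonTx, red Tx). Tx replicate 1 lies alone at 1.44 and -2.22, and nonTx replicates 1 and 2 lie at the opposite end.

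Single members differed in how closely they ran against Arntl. Without Tx replicate 1, Dbp had the tightest opposition (r = -0.90 over 7 arrays, against -0.89 over 8), with Nr1d2 at -0.78, Per3 at -0.69, Ciart at -0.68 and Usp2 at -0.68. Over 8 arrays Usp2 (-0.97) and Nr1d2 (-0.95) had been tighter. Per1 and Per2 were at -0.31 and -0.33 without it, against -0.64 and -0.84 with it. Nr1d1 ran with Arntl over 8 arrays (r = 0.65), a relation that fell to -0.01 without Tx replicate 1. Among the other 7 day and evening members, the 21 pairs had r between 0.60 and 0.93, with a median of 0.83, and a median of 0.64 without Tx replicate 1. Nr1d1 was set against those 7 with r between -0.84 and -0.52, and between -0.67 and 0.01 without Tx replicate 1.

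Among other clock genes, which the choice of members did not use, 4 of 17 tested followed the same ordering of the arrays. An axis was formed for each array as the mean deviation of the day and evening members minus that of Arntl, and ran from -1.47 on nonTx replicate 2 and -1.30 on nonTx replicate 1, through -0.72, -0.30, 0.00, 0.01 and 0.12, to 3.66 on Tx replicate 1. At its low end, nonTx replicates 1 and 2, the axis includes Ciart values not well above background. Of 18 listed clock genes and modifiers, 17 could be tested (Bhlhe41 was at background on all 8 arrays), and 4 were related to the axis by an exact two-sided permutation test over the 8 arrays, adjusted over these 17 relations. Tef and Bhlhe40 rose along the axis, and Clock and Nfil3 fell. By the same test, unadjusted, 4 of the 17 had p under 0.05, beside 6.61% of 16474 tested genes. Adjusted over all of those genes, 0 passed, and the lowest adjusted p among the 17 was 0.454 (exact permutation). The calls therefore hold over the 17 relations only. The list was chosen with earlier results of these data known, which the adjusted p-values do not take into account.

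Tef, a D-box activator and relative of Dbp, had scaled log2 levels of 5.46, 5.11, 5.91 and 5.87 on nonTx replicates 1 to 4 and 6.69, 5.62, 5.53 and 5.85 on Tx replicates 1 to 4. It was highest on Tx replicate 1 and lowest on nonTx replicate 2, as Dbp was. Its r with the axis was 0.95 and its rho 0.88 (adjusted exact permutation p = 0.00394 and 0.0308, 8 of 8 arrays used), and r was 0.79 without Tx replicate 1 and nonTx replicate 2. Bhlhe40, which encodes a repressor that binds E-boxes, read 1.58, 1.59, 2.24 and 2.40 in nonTx and 2.58, 1.82, 1.72 and 1.87 in Tx. NonTx replicates 1 and 2 were lower than nonTx replicates 3 and 4, as they were for Per2 and Usp2. Its r was 0.83 and rho 0.90 (adjusted exact permutation p = 0.00211 and 0.0259), and r was 0.80 without the 2 farthest arrays.

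Nfil3, the repressor that competes at D-boxes, went the other way. Its scaled log2 levels were 4.02, 4.13, 3.49 and 3.19 in nonTx and 3.12, 3.50, 4.09 and 3.82 in Tx. It was lowest on Tx replicate 1 and highest on nonTx replicate 2, the extremes of the axis, with r = -0.79 and rho = -0.95 (adjusted exact permutation p = 0.00211 and 0.00970), and r = -0.86 over the 6 inner arrays. Clock, the partner of ARNTL, read 2.63, 2.34, 2.13 and 1.91 in nonTx and 1.73, 2.05, 2.31 and 2.19 in Tx. Clock was thus lowest where Arntl was lowest. Its r was -0.84 and rho -0.98 (adjusted exact permutation p = 0.0198 and 0.00675), and r was -0.97 over the 6 inner arrays. With the group means subtracted, r was 0.94 for Tef, 0.90 for Bhlhe40, -0.84 for Nfil3 and -0.81 for Clock.

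The relations were repeated over 17 settings, which were the reported one, other ways of processing, and each array left out in turn. Tef stayed past the threshold in 17, with an adjusted exact permutation p of 0.00183 to 0.0472. Bhlhe40 passed in 16 (0.00126 to 0.111), Nfil3 in 15 (0.000843 to 0.0720) and Clock in 14 (0.00274 to 0.0885). Without Tx replicate 1, Tef (r = 0.88) and Clock (r = -0.87) passed by exact permutation over 7 arrays, each at an adjusted p of 0.0472, while Nfil3 (r = -0.88) had an adjusted p of 0.0720 and Bhlhe40 (r = 0.83) of 0.111. Clock also missed the threshold with scaling to the array median (0.0621) and without nonTx replicate 2 (0.0885) or Tx replicate 3 (0.0654), and Nfil3 with scaling to the median (0.0654).

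**Figure D4:**
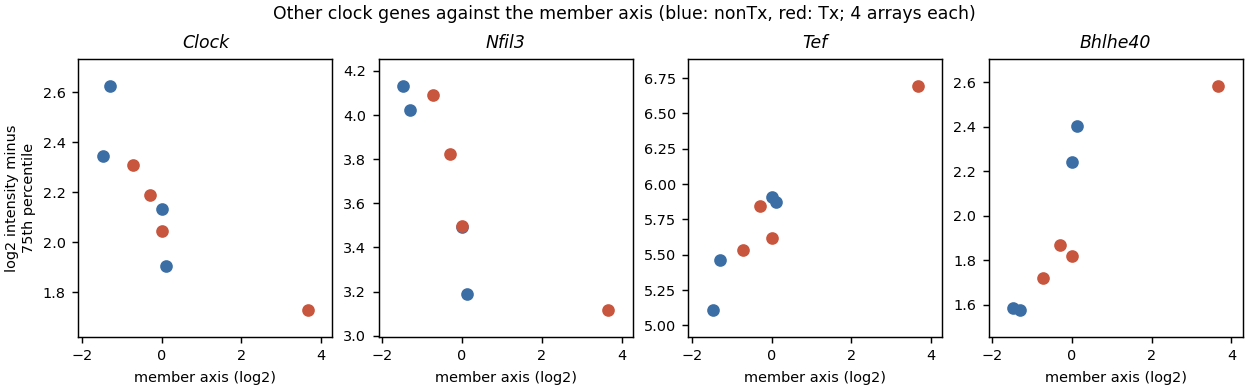
Scaled log2 level of Clock, Nfil3, Tef and Bhlhe40 (vertical axes, each its own) against the axis formed from the members (horizontal, log2), 1 point per array. Clock and Nfil3 fall and Tef and Bhlhe40 rise along the axis, and Tx replicate 1 is the point at 3.66.

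The other 13 clock genes had no relation past the threshold as processed here. Cry2, a cryptochrome repressor of the loop, had r = 0.64, which came to -0.04 without the 2 farthest arrays, and Cry1 had r = -0.47, which turned to 0.18. The Cry1 probe was near the floor, at intensities of 14.8 to 32.7, and was well above background on 3 of the 4 Tx arrays. Hlf, the other relative of Dbp, had r = 0.32 over 8 arrays and -0.58 over the 6 inner ones. The sign was the same over 8 and 6 arrays in 7 of the 17. Cry2 passed without nonTx replicate 4 (adjusted exact permutation p = 0.0229) and Cry1 with the mean of its probes (0.0344). Fbxl21, an F-box gene with r of 0.00 as processed here, passed with normexp background correction (r = -0.91, 0.0492). Its probe was also dim, at intensities of 19.0 to 47.5.

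**Figure D5:**
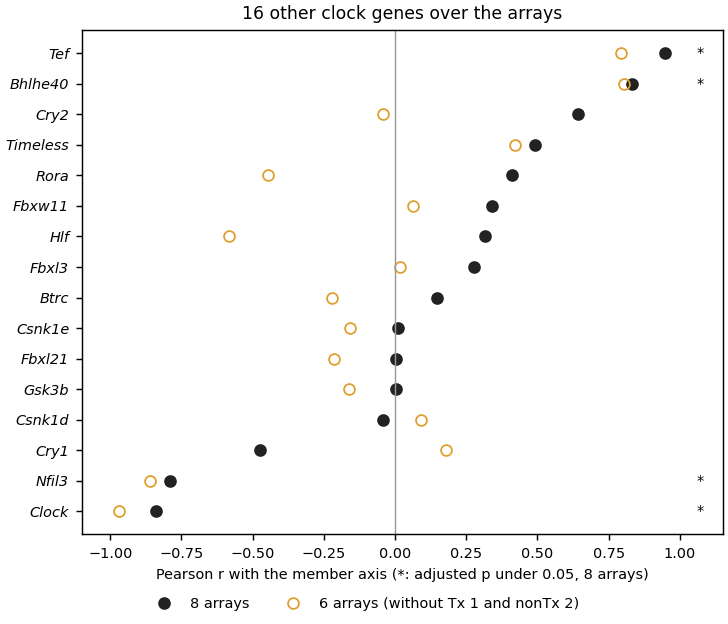
Pearson r with the axis formed from the members for 16 of the 17 other clock genes, over 8 arrays (filled) and over 6 arrays without Tx replicate 1 and nonTx replicate 2 (open). An asterisk marks the 4 genes past an adjusted exact permutation p of 0.05 over 8 arrays; their open and filled points lie on the same side of 0.

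Between Tx and nonTx, the other clock genes, which include dawn genes, evening genes and modifiers, lay in both directions. Of the 17, 9 were higher and 8 lower in Tx, the median log2 difference was 0.00 (7 higher, 10 lower and -0.07 without Tx replicate 1), and limma called 0 in either direction (3 had an unadjusted p under 0.05, beside 13.9% of all tested genes). The 3 were Cry2, at 0.32 ± 0.10, the casein kinase gene Csnk1d, at 0.22 ± 0.10, and the kinase gene Gsk3b, at -0.23 ± 0.09 (SE, n = 4 per group), with adjusted p by limma of 0.313, 0.370 and 0.352. Both kinases phosphorylate clock proteins. The Csnk1d levels ran from 4.91 to 5.08 in nonTx and from 5.09 to 5.48 in Tx, without overlap, as in 8.06% of all tested genes (0% of all probes were called), and neither kinase followed the axis (r = -0.04 and 0.00).

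Among 20 liver genes listed as rhythmic outputs, all of them tested, 16 were higher and 4 lower in Tx, and the log2 differences had a median of 0.24. Over all tested genes, 56.3% were higher and the median was 0.03. Limma called 0 of the 20, and 1 had an unadjusted p under 0.05, beside 13.9% of all tested genes. Without Tx replicate 1, 12 were higher and 8 lower, with a median of 0.05. The gene with an unadjusted p under 0.05 was Tspan4, a tetraspanin gene, at 0.38 ± 0.15 (adjusted p by limma 0.345), and at 0.22 without Tx replicate 1. Lpin1, a phosphatidate phosphatase gene, read 1.20, 1.73, 2.81 and 3.73 in nonTx and 4.58, 3.29, 2.98 and 2.94 in Tx. Upp2, a uridine phosphorylase gene, read 1.36, 2.72, 3.09 and 3.98 in nonTx and 4.41, 3.74, 3.31 and 3.59 in Tx. Both were lowest on nonTx replicate 1 and highest on Tx replicate 1. The log2 differences between groups were 1.08 ± 0.53 for Lpin1 and 0.97 ± 0.46 for Upp2, 0.29 ± 0.13 for Por, the reductase that feeds electrons to cytochromes P450, and 0.80 ± 0.38 for the fatty acid elongase gene Elovl3, none past the threshold. They came to 0.70, 0.76, 0.17 and 1.03, in that order, without Tx replicate 1.

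Set against the axis, a step chosen after the values were seen, 7 of the 20 output genes passed by r and 3 by rho (exact permutation over 8 arrays, adjusted over the 20). Unadjusted, 9 of the 20 had p under 0.05 by r, beside 6.61% of all tested genes, and 0 passed when adjusted over all genes (lowest 0.578). Lpin1 passed both ways, at r = 0.85 and rho = 0.88 (adjusted exact permutation p = 0.0176 and 0.0483), and kept r = 0.88 over the 6 inner arrays. Por had r = 0.93, which came to 0.54 over the 6 inner arrays. It passed by r but not by rho (adjusted exact permutation p = 0.0250 and 0.0871). Upp2 had r = 0.71 and rho = 0.90, and passed by rho only (adjusted exact permutation p = 0.169 and 0.0483). Of the 7 that passed by r, Insig2 (r = -0.83) and Lonrf3 (r = -0.75) fell along the axis and the others rose. Leaving out Tx replicate 1 or nonTx replicate 1 left 0 of the 20 past the threshold, leaving out nonTx replicate 4 left 1, Tx replicate 3 left 3, and nonTx replicate 2 or 3 left 4. Without Tx replicate 1, r was 0.89 for Lpin1, 0.78 for Upp2 and 0.76 for Por. In 12 of the 20, Tx replicate 1 was the highest array, as it was in 13.3% of all tested genes.

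The genes whose pattern over the 8 arrays was most like the axis, of 16474 compared and members left out, were Dclre1b (r = 0.98), Rcc1 (0.98), Pvr (0.97), Inhbb (0.96) and Slc20a1 (0.96). Those most opposed were Lgalsl (-0.97), Rab32 (-0.96), N4bp3 (-0.96), Clpx (-0.96) and Lrfn3 (-0.95). Their r over the 6 inner arrays lay between 0.47 (Slc20a1) and 0.93 (Rcc1) and between -0.92 (Clpx) and -0.69 (Lrfn3). These genes were ranked on likeness itself, so their r carries no test.

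Other genes also differed on Tx replicate 1. On that array 220 of 16495 tested genes lay more than 1 log2 unit above the mean of the other 3 Tx arrays and 237 as far below. The same counts were not made for the other arrays, so they do not set this array apart. It was the highest of the 8 arrays in 13.3% of the tested genes. The sum of the 9 hepatocyte markers was 3351 there, on a scale where 1 is the array's 75th percentile, against 3667 to 4039 on the other Tx arrays and 3644 to 3946 in nonTx. The sum of the 6 stellate cell markers was 224 there against 193 to 208 on the other Tx arrays and 183 to 199 in nonTx, that of the 5 cholangiocyte markers 11.7 against 5.86 to 8.39 and 7.71 to 8.89, and that of the 5 adipocyte markers 2.03 against 1.27 to 1.49 and 1.003 to 1.57. The adipocyte genes Adipoq, Plin1 and Retn were at background on all 8 arrays. The sum of the 6 T cell markers was 3.73 on Tx replicate 1, 4.01 to 4.72 on the other Tx arrays and 4.85 to 5.40 in nonTx. The sum of the 6 Kupffer cell markers was 93.5 on Tx replicate 1, 123 to 141 on the other Tx arrays and 96.9 to 122.8 in nonTx. The sums of the B cell, sinusoidal endothelium and exocrine pancreas markers on Tx replicate 1 (1.97, 120.0 and 57.3) lay within the range of the other 7 arrays. Whether these values play a part in the members' pattern was not tested; in whole liver, fewer cells of a type and less RNA per cell cannot be told apart.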

How the data were processed

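Cy3-labelled liver RNA was hybridised to 8 one-colour Agilent arrays. The deposited intensity of each spot is background-subtracted by Feature Extraction, version 10.7.1.1 per the file headers and 9.1 in the submitters' processing notes. The deposited table repeats these intensities and adds the authors' log2 values; dividing by the 75th percentile and centring each probe on its median rebuilt them within 0.0016 for the 56305 probes with 1 spot. Here log2 intensities were scaled by that percentile alone, control spots dropped and outlier spots set to missing. Probes were tested if well above background on 3 or more of the 4 arrays in either group. A gene is its brightest tested probe. Tx and nonTx were compared in limma 3.58.1 under R 4.3.3 (eBayes with trend, Benjamini-Hochberg over all tested probes), tested on simulated data; relations used exact permutation (numpy 2.4.6). Members and lists were chosen with earlier results of these data known. Named genes were all members, from the other clock genes those with an unadjusted p under 0.05 and then by r up to 8, 5 output genes by smallest p, and the 5 most and 5 least like the axis; other genes named were chosen after their values were seen. Array number, 4 per group, limits precision. One clock gene is not reported here. Alternatives are given in the closing section.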

Additional observations from a re-analysis of the deposited data

Results flagged for a closer look

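A check for a single array far from the other 3 of its group was made in 46 groups of 4 arrays. The groups covered the members and the other clock and output genes described. By chance about 1 in 20 such groups is marked, and 5 were marked here, 4 of them on Tx replicate 1. The members were chosen on these values and the genes share the same arrays, so the 5 cannot be weighed against that rate. Arntl had a scaled log2 level of -1.63 on Tx replicate 1, far below the 0.73 to 0.9996 of the other Tx arrays. Usp2 stood at 2.12 on Tx replicate 1, far above the -1.48 to -0.95 of the others. Bhlhe40 stood at 2.58 there against 1.72 to 1.87, and the P450 reductase gene Por at 6.64 against 6.14 to 6.19. The fifth was Csnk1d, at 4.91 on nonTx replicate 1 against 5.05 to 5.08 on the other nonTx arrays.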

How the results depend on the processing

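Over all probes, 0 were called between groups, and the count was 2 with normexp background correction, 6 with scaling to the array median, and 1 each with the authors' log2 values and without a variance trend. Leaving out each array in turn gave 0 to 188 (188 without Tx replicate 2). Scaling to the median moved the median log2 difference of all probes from 0.02 to 0.12. With the replicate number as a replicate block the count was 1. The same-numbered arrays correlated at 0.04, 0.08, 0.10 and -0.01 after group means were subtracted, so the numbers were not taken as pairs, and not every array correlated best with its own number. The 4 other clock genes related to the axis became 2 with median scaling, where Clock and Nfil3 did not pass, and 2 to 5 when arrays were left out. The 7 output genes related to it became 2 with the mean of a gene's probes and 0 to 6 when arrays were left out. The r of Arntl with the day and evening genes lay between -0.96 and -0.69 over left-out arrays. The log2 difference of Per1 lay between -0.30 and 0.83 and that of Per2 between -0.13 and 0.41 over left-out arrays, with the sign turned in 2 and 1 of them. In the other settings, 80 of 80 member differences kept their sign. Ciart had no value where probes had to be above background on all 8 arrays. The cause of these changes was not tested.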
